A study of Homo sapiens with 12 samples.

Results

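The genes described here encode subunits of the sodium pump (Na+/K+-ATPase). They were the rows of the deposited count table whose gene name is ATP1A4, ATP1B1, ATP1B2, ATP1B3 or FXYD5, that is 5 of 50868 genes. Values came from RNA-seq of MG63, an established human osteosarcoma cell line, in 12 libraries that form 4 groups of 3. The compound experiment held vehicle-treated cells and cells given 1 µM anticarin-beta, both collected at 18 hours. The siRNA experiment held cells transfected with a control siRNA (Allstar) and cells transfected with siRNA against CCT4, a subunit of the chaperonin that folds actin and tubulin, both for 2 days. All groups share the MG63 background, and the labels name no genetic change. Whether replicates of a group came from separate cultures is not in the labels, so the p-values measure the spread between these libraries, which may be technical.

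The sodium pump exports sodium and imports potassium against their gradients at the cost of ATP. Its alpha subunit carries out transport and binds cardiac glycosides from the outside of the cell, its beta subunit is a glycoprotein needed for folding and delivery of the pump to the plasma membrane, and a small FXYD protein associates with it and tunes its kinetics. ATP1A4 encodes the alpha isoform known from testis and sperm, ATP1B1 the widespread beta isoform, ATP1B2 a beta isoform best known as an adhesion molecule of glia, and ATP1B3 a further beta isoform. FXYD5, also called dysadherin, encodes a family member known for lowering cell adhesion in carcinoma.

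On GRCh38 with GENCODE release 29, all 5 genes lie on the + strand and are annotated as protein coding. ATP1A4 (ENSG00000132681) spans 160151570 to 160186977 of chromosome 1 and ATP1B1 (ENSG00000143153) spans 169105697 to 169132722 of the same chromosome. ATP1B2 (ENSG00000129244) spans 7646627 to 7657768 of chromosome 17, ATP1B3 (ENSG00000069849) spans 141876124 to 141926514 of chromosome 3, and FXYD5 (ENSG00000089327) spans 35154730 to 35169883 of chromosome 19. Counts cover whole exons of a gene, and ATP1B1 was the only member that shares annotated exon bases with another gene, 192 of its 2962 bases, with NME7 on the opposite strand.

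Promoter sequence is shown for ATP1B3 and FXYD5, since these were the most abundant members and the compound changed them to different extents. Each stretch is the part of the 250 bases before the RefSeq start (GRCh38.p14, + strand) that lies outside annotated exons of the gene. All 5 members matched an entry. For ATP1B1 all 250 bases lie within annotated exons, so none is shown. The ATP1B3 stretch lies within the annotated gene, between exons and after its GENCODE start at 141876124. Capitals mark matches to 3 motifs, searched on both strands. The letters GGGCGG are the core of the GC box known to bind Sp1 factors. The letters CCAAT are the box known to bind the factor NF-Y. Those of the half-site of the cyclic AMP response element are TGACG.
ATP1B3, chr3:141876395-141876613: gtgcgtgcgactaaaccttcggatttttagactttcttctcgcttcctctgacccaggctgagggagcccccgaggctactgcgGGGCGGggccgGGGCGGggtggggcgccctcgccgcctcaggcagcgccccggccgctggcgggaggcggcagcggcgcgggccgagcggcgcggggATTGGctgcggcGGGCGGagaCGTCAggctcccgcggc
FXYD5, chr19:35154485-35154729: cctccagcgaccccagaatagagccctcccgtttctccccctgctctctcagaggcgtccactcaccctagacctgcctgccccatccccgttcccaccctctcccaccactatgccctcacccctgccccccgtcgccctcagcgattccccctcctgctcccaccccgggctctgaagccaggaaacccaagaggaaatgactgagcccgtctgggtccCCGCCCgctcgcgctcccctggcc
Over the whole 250 bases, ATP1B3 held 4 GC boxes, ATP1B1 held 2 and FXYD5 held 1, and 42.6% of 35116 RefSeq promoters of that length held at least 1. ATP1B1 and ATP1B3 each held 1 CCAAT box and FXYD5 held 0, with 32% of promoters holding one. ATP1B3 and ATP1B2 each held 1 cyclic AMP half-site, found in 21.2% of promoters. GC content was 77.6% for ATP1B1, 77.2% for ATP1B3 and 68% for FXYD5, against a median of 58% over all promoters. A match of letters is a description of the window and not evidence of binding.

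Libraries held 13393750 to 17492095 counts. Levels of 9 osteoblast and mesenchymal markers were summed in CPM (TMM-scaled counts of a gene per 1e+06 counts of a library). The sum was 8810 to 11500 CPM in vehicle and 14300 to 15100 in anticarin-beta libraries. It was 3680 to 3990 in control siRNA and 4740 to 4950 in CCT4 siRNA libraries. Most of it came from VIM, COL1A1, SPARC and COL1A2, and such a sum cannot identify a cell line. The osteoblast markers SP7 and SPP1 gave only 11 and 8 counts over the 12 libraries. Marker sums of other cell types stayed low in every group. Epithelial genes reached at most 2.29 CPM, testis germ cell genes 1.33 with DAZL, PRM1, PRM2 and TNP1 at 0, neural and glial genes 6.21, endothelial genes 15.5, and leukocyte genes 16.1 with CD3E and LYZ at 0. The part of the shift in mesenchymal markers in the results below was not tested. CCT4, the siRNA target, was at 206 ± 9.18 CPM (SD, n = 3) in the libraries labelled CCT4 siRNA and at 177 ± 14.4 CPM in the control siRNA libraries, with a log2 fold change of 0.22 and an adjusted p of 0.129 by edgeR's quasi-likelihood test. The target was thus no lower where the label names its siRNA, and every direction given for those libraries carries that limit. In the anticarin-beta libraries CCT4 fell by 1.52 on the log2 scale (adjusted p = 1.84e-08).

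The catalytic isoform ATP1A4 and the glial beta isoform ATP1B2 were at the detection floor. ATP1A4 had 0, 1 and 0 counts in the vehicle libraries 1 to 3, 0, 1 and 3 in the anticarin-beta libraries, 0, 1 and 0 in the control siRNA libraries and 0, 5 and 0 in the libraries labelled CCT4 siRNA. ATP1B2 had 0 counts in every vehicle and CCT4 siRNA library, 1, 0 and 0 counts in the anticarin-beta libraries and 0, 3 and 3 in the control siRNA libraries. No group had a count of either gene in all of its libraries. A total of 3 counts, the limit that a count of 0 allows, correspond to 0.16 to 0.277 CPM in a single library. Both genes failed the filter on low counts and were not tested. Without the filter, 34621 genes were tested, and neither gene was called in any comparison, with adjusted p = 0.336 for ATP1A4 in the compound comparison. For ATP1B2 the adjusted p was 0.237 in the siRNA comparison and 0.112 in control siRNA against vehicle (unadjusted p = 0.0326). Differences in these genes were not detectable at this depth.

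ATP1B3 was the most abundant member and ATP1B1 the least abundant of the 3 that were tested. Per kilobase of exon, mean levels in vehicle libraries were 47.6 CPM for ATP1B3, 20.5 for FXYD5 and 2.9 for ATP1B1. Of the genes tested, 5.38% had a higher mean level per library than ATP1B3, 13.9% than FXYD5 and 45.5% than ATP1B1 (CPM, not scaled by length). The pseudogenes ATP1B1P1 and ATP1B3P1 summed to at most 8 and 26 counts in a group, against 461 or more for ATP1B1 and 6626 or more for ATP1B3.

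**Figure D1:**
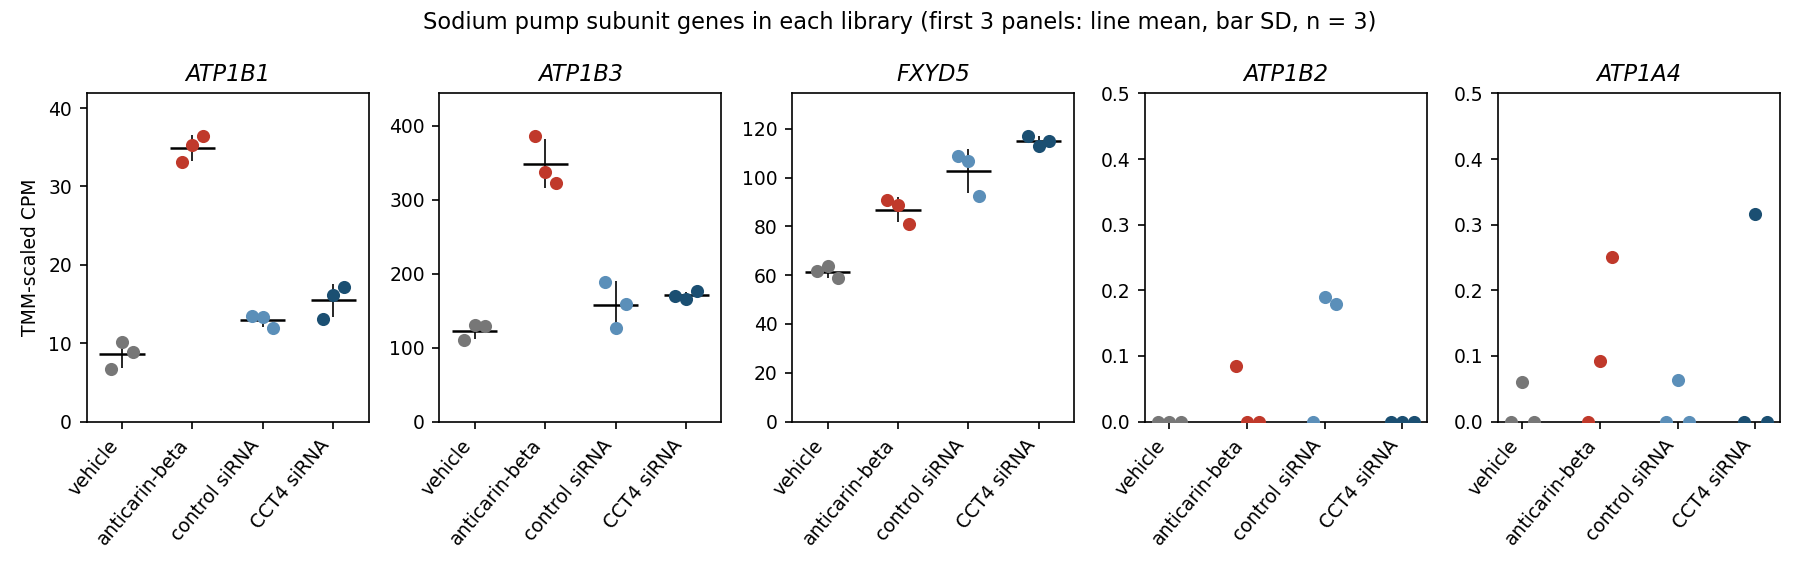
TMM-scaled CPM (vertical axes, 1 scale per gene) of each member in the 12 libraries, by group (horizontal axis). Points are libraries; in the first 3 panels lines are means and bars are SD (n = 3). The 3 anticarin-beta libraries sit above all others for ATP1B1 (33.1 to 36.4) and ATP1B3 (323 to 386), whereas for FXYD5 both siRNA groups sit higher; ATP1B2 and ATP1A4 stay under 0.5 in every library.

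Anticarin-beta raised both expressed beta subunit genes and, to a smaller extent, FXYD5. ATP1B1 was at 6.71, 10.2 and 8.88 CPM in the vehicle libraries and at 33.1, 35.3 and 36.4 CPM in the anticarin-beta libraries. Every compound library thus lay above every vehicle library. The log2 fold change was 2.03 ± 0.148 (SE, n = 3 per group), a 4.07-fold rise with a 95% interval of 3.25 to 5.09 and an adjusted p of 6.5e-08. ATP1B3 was at 110, 130 and 129 CPM in vehicle and at 386, 338 and 323 CPM with anticarin-beta, again without overlap. Its log2 fold change was 1.51 ± 0.127, a 2.84-fold rise (2.35 to 3.44, adjusted p = 2.51e-07). FXYD5 was at 61.7, 63.7 and 58.8 CPM in vehicle and at 90.7, 88.9 and 81 CPM with the compound. Its log2 fold change was 0.50 ± 0.0766, a 1.41-fold rise (1.26 to 1.59, adjusted p = 6.48e-05). All adjusted p-values are from edgeR's quasi-likelihood test with Benjamini-Hochberg adjustment over 17717 genes. In the same comparison 34.9% of all genes tested were called higher and 38.0% lower, so that a call in either direction was common.

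The rise of FXYD5 depended on the scaling between libraries. With library totals alone its levels were 66.1 ± 2.86 CPM in vehicle and 70.1 ± 4.42 CPM with anticarin-beta (SD, n = 3), and the log2 fold change of 0.08 was not called (adjusted p = 0.345). The same setting moved the median change of all genes from -0.06 to -0.48, and upper-quartile scaling moved it to -0.18. Relative to the median of all genes, FXYD5 changed by 0.56, ATP1B1 by 2.09 and ATP1B3 by 1.57, values that scaling leaves nearly the same by construction and that do not bear on which scaling holds. Among the genes tested, 8.25% rose by more than ATP1B1, 13.6% by more than ATP1B3 and 33.5% by more than FXYD5. Levels are shares of a library, so fewer cells of a type and less RNA per cell cannot be told apart, nor can a rise of a gene be told apart from a fall of the rest of the library.

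NME7, the kinase gene whose exons overlap those of ATP1B1 on the other strand, was also higher with the compound, at 12.3 ± 1.08 CPM in vehicle and 27.7 ± 2.63 CPM with anticarin-beta (log2 fold change 1.17, adjusted p = 4.73e-07). NME7 had 216 to 332 counts per library. No label states whether the counting used strand, and the share of these reads in the ATP1B1 count was not tested. The antisense gene ATP1B3-AS1, which shares no annotated exon base with ATP1B3, summed to 19 counts in vehicle, 114 with anticarin-beta, 23 in control siRNA and 38 in CCT4 siRNA libraries.

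In the siRNA experiment none of the 3 tested members was called. ATP1B1 was at 13.5, 13.3 and 11.9 CPM in the control siRNA libraries and at 13.1, 16.1 and 17.2 CPM in the libraries labelled CCT4 siRNA, so that the groups overlapped. The log2 difference was 0.26 ± 0.145 (95% interval -0.06 to 0.58, adjusted p = 0.241). ATP1B3 was at 189, 126 and 159 CPM in control siRNA and at 170, 166 and 176 CPM in CCT4 siRNA libraries, where the control libraries spanned the whole range of the other group. Its difference was 0.11 ± 0.125 (-0.16 to 0.38, adjusted p = 0.581). FXYD5 was at 109, 107 and 92.6 CPM in control siRNA and at 117, 113 and 115 CPM in CCT4 siRNA libraries, without overlap under TMM scaling. With library totals alone its groups overlapped, at 121, 120 and 104 CPM in control siRNA and 119, 115 and 118 CPM in CCT4 siRNA libraries. The TMM-scaled difference of FXYD5 was 0.16 ± 0.0756 (-0.01 to 0.32, adjusted p = 0.165). None passed an unadjusted p under 0.05 (0.0985, 0.381 and 0.0563 in that order), and DESeq2 and limma-voom also called 0 of 3. The intervals leave room for a rise of up to 1.49-fold for ATP1B1, 1.31-fold for ATP1B3 and 1.25-fold for FXYD5. Of all genes tested, 10.7% were called higher and 9.04% lower in this comparison.

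The responses in the compound and siRNA experiments differed for all 3 tested members. The compound response exceeded the siRNA response by 1.77 ± 0.206 on the log2 scale for ATP1B1 (adjusted p = 1.02e-05) and by 1.39 ± 0.177 for ATP1B3 (adjusted p = 2.1e-05). For FXYD5 the excess was 0.34 ± 0.107 (adjusted p = 0.0153), and it was not called with upper-quartile scaling (0.25, adjusted p = 0.0681), with library totals alone (0.05, adjusted p = 0.683) or without the filter on low counts (0.32, adjusted p = 0.0634). For this difference 27.5% of all genes were called higher and 32.4% lower. The experiments also differ in agent, in time and in handling, which cannot be told apart here.

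**Figure D2:**
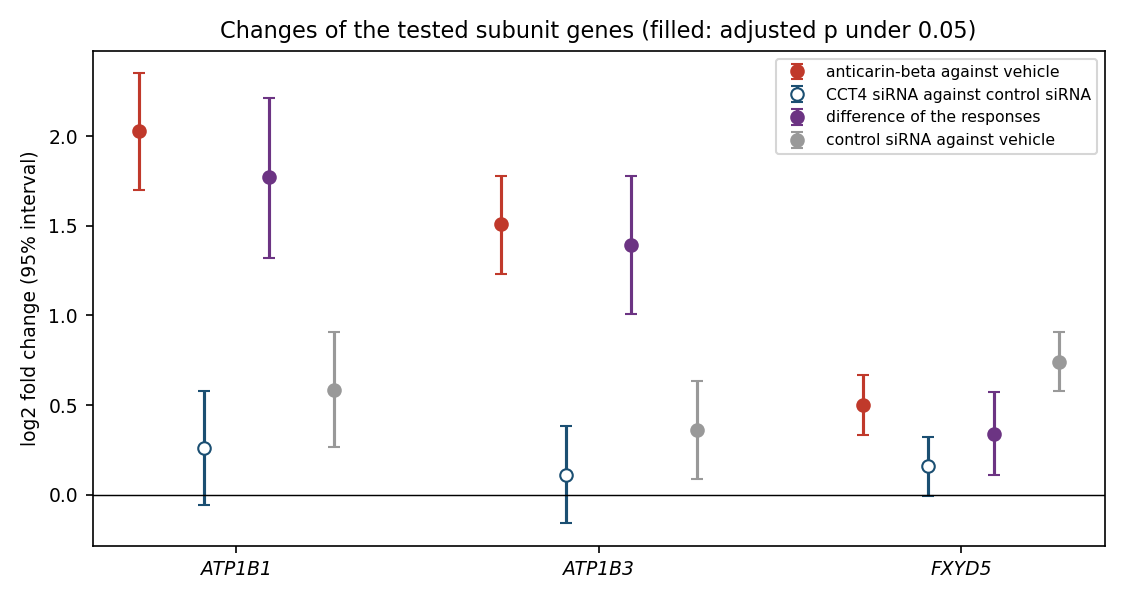
Log2 fold changes (vertical axis) of the 3 tested subunit genes (horizontal axis) in each comparison; points are estimates over 12 libraries, bars are 95% intervals, and filled points passed an adjusted p of 0.05. The compound comparison and the difference of the responses lie far above 0 for ATP1B1 and ATP1B3, all siRNA intervals include 0, and FXYD5 has its highest value, 0.74, in control siRNA against vehicle.

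The control groups of the experiments were not alike for these genes. FXYD5 was higher in control siRNA than in vehicle libraries by 0.74 ± 0.0763 on the log2 scale, or 1.67-fold (1.49 to 1.88, adjusted p = 5.51e-06), with no overlap. ATP1B1 was higher by 0.59 ± 0.149, or 1.5-fold (adjusted p = 0.00566), also without overlap. ATP1B3 was higher by 0.36 ± 0.125, or 1.29-fold (adjusted p = 0.0297), with groups that overlapped under TMM scaling. The ATP1B3 call was lost without vehicle library 1 (0.29, adjusted p = 0.105), control siRNA library 1 (0.22, adjusted p = 0.153) or control siRNA library 3 (0.36, adjusted p = 0.0665), and with upper-quartile scaling (0.30, adjusted p = 0.065). In this comparison 24.8% of all genes were called higher and 23.6% lower. Transfection, time in culture and experiment cannot be told apart in it.

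Ordered by mean level, ATP1B1 ran from vehicle (8.59 ± 1.76 CPM, SD, n = 3) through control siRNA (12.9 ± 0.844) and CCT4 siRNA (15.4 ± 2.11) to anticarin-beta (34.9 ± 1.67). Only its neighbours control siRNA and CCT4 siRNA overlapped. ATP1B3 had the same order, with 123 ± 10.9, 158 ± 31.3, 171 ± 4.56 and 349 ± 33 CPM. The values of vehicle and control siRNA overlapped, as did those of the siRNA groups, and anticarin-beta stood clear of the rest. FXYD5 had another order, from vehicle (61.4 ± 2.48) through anticarin-beta (86.9 ± 5.15) and control siRNA (103 ± 8.83) to CCT4 siRNA (115 ± 2.2). Its neighbours did not overlap, but the lowest control siRNA library, at 92.6 CPM, was close to the highest anticarin-beta library, at 90.7 CPM. These orders and overlaps hold for TMM-scaled levels. With library totals alone, FXYD5 in vehicle (62.8 to 67.9 CPM) overlapped anticarin-beta (65 to 73.3 CPM), and its siRNA groups overlapped. The ATP1B3 means of control siRNA and CCT4 siRNA libraries then changed places, at 177 and 175 CPM. The overlap of ATP1B3 between vehicle (121 to 138 CPM) and control siRNA (141 to 211 CPM) was lost with library totals.

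Ratios between subunits within a library do not depend on scaling between libraries. The log2 ratio of ATP1B1 to ATP1B3 counts was -4.03, -3.67 and -3.85 in the vehicle libraries and -3.54, -3.26 and -3.15 in the anticarin-beta libraries. All compound libraries lay above all vehicle libraries, with a difference of 0.53, or 1.45-fold (two-sided exact permutation test, p = 0.1, the smallest that 3 libraries against 3 can give). Per length of exon, ATP1B1 made up 5.71 ± 0.687% of the summed ATP1B1 and ATP1B3 level in vehicle and 8.09 ± 1.02% with anticarin-beta (SD, n = 3). The share was 6.81 ± 1.41% in control siRNA and 7.3 ± 0.89% in CCT4 siRNA libraries, whose log2 ratios overlapped (difference 0.12, exact permutation p = 0.8). ATP1B3 thus remained the beta subunit gene with the larger transcript level in every library, with ATP1B1 at 5.04 to 8.94% of the pair.

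The log2 ratio of FXYD5 to ATP1B3 counts moved the other way. It was -0.84, -1.03 and -1.13 in vehicle and -2.09, -1.92 and -2.0 with anticarin-beta. The compound libraries were all lower, by 1.01 on the log2 scale or 2.01-fold (exact permutation p = 0.1, the smallest possible). In the siRNA experiment it was -0.80, -0.24 and -0.78 in control and -0.54, -0.57 and -0.61 in CCT4 siRNA libraries. Control siRNA library 2 stood apart with the highest ratio, and the groups differed by 0.03 (exact permutation p = 1).

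**Figure D3:**
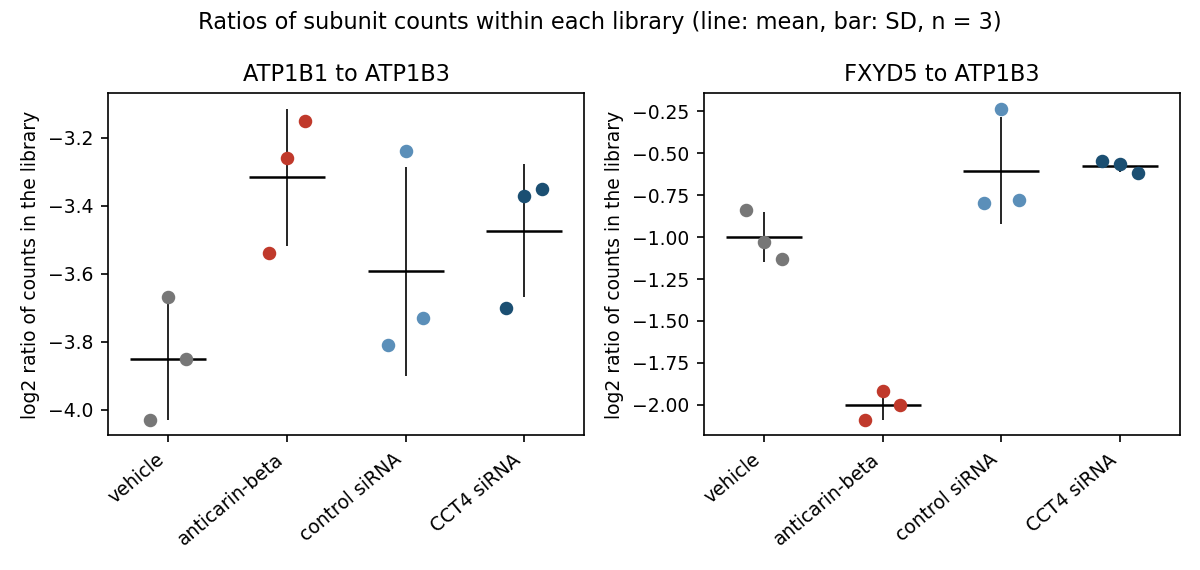
Log2 ratios of counts within each library (vertical axes), by group (horizontal axis), for ATP1B1 to ATP1B3 and FXYD5 to ATP1B3; points are libraries, lines means and bars SD (n = 3). With anticarin-beta the first ratio lies above vehicle and the second below it, near -2.0, without overlap, while the siRNA groups overlap in both.

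A list of 14 related genes held the other FXYD genes, ATP1B4, proton pump subunit genes and the NKAIN genes. It does not cover the whole pump family and says nothing about genes outside it. Of the 14, only NKAIN1 passed the filter on low counts. NKAIN1, which encodes a membrane protein that interacts with the beta subunit, was at 6.76 ± 0.68 CPM in vehicle and 3.25 ± 0.324 CPM with anticarin-beta (SD, n = 3), 2.08-fold lower (log2 fold change -1.06, adjusted p = 3.47e-05), and was not called in the siRNA experiment (-0.09). FXYD5 had 16609 counts over the 12 libraries. Of the other FXYD genes, FXYD6 had 82, FXYD3 28, FXYD1 14, FXYD7 11, FXYD4 1 and FXYD2 0.

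Regulators of the pump were called in both directions with the compound, at shares near those of all genes. Of 18 listed kinases, ubiquitin ligases and receptors, 16 were tested, 7 were higher, 6 lower and 3 not called (all genes: 34.9% higher, 38.0% lower). Their median was 0.54 on the log2 scale and that of all genes -0.06. NEDD4L, a ubiquitin ligase of sodium channels, rose from 38.9 ± 1.3 to 251 ± 14.7 CPM (2.69 on the log2 scale, adjusted p = 2.23e-11). SIK1, a salt-inducible kinase that acts on the pump, rose from 8.15 ± 0.624 to 40.7 ± 0.524 CPM (2.32, adjusted p = 2.34e-10). STK39 and OXSR1, related kinases that act on chloride cotransporters, moved apart. STK39 went from 46.7 to 12.5 CPM (-1.90) and OXSR1 from 47.1 to 93.5 CPM (0.99). In the siRNA experiment 3 were higher, 2 lower and 11 not called (10.7% and 9.04% of all genes), and with library totals 1 was higher. SIK1 was lower (-0.54, adjusted p = 0.00124), and the genes of protein kinase C alpha, PRKCA (0.30, adjusted p = 0.0181), and of the salt-handling kinase WNK4 (1.29, adjusted p = 0.0182) were higher. WNK4 levels were low, at 0.512 to 0.656 CPM in control siRNA and 0.964 to 1.83 CPM in CCT4 siRNA libraries. A total of 3 counts in a single library correspond to 0.16 to 0.277 CPM. The WNK4 call was lost without control siRNA 1 (1.21) or 2 (1.28) or CCT4 siRNA 1 (1.09) or 2 (1.25), and that of PRKCA without control siRNA 1 (0.29) or 2 (0.27) or CCT4 siRNA 2 (0.28) or 3 (0.29). The PRKCA call was also lost with library totals (0.17, adjusted p = 0.158) and without the filter on low counts (adjusted p = 0.0684).

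Genes for the membrane skeleton that anchors the pump were lower or not called with the compound. Of 10 genes, 8 were lower, 0 higher and 2 not called, with a median of -1.21, where 38.0% of all genes were lower and 34.9% higher. ADD2, a beta adducin, fell from 38.6 ± 1.63 to 2.9 ± 0.41 CPM (13.3-fold, adjusted p = 4.09e-11). The beta spectrin gene SPTBN1 fell from 281 to 169 CPM (1.66-fold). ANK1, an ankyrin, fell from 10.3 to 1.04 CPM (9.82-fold). Among the siRNA libraries 2 were lower and 8 not called (9.04% of all genes were lower). Of those not called, ANK1 was near the threshold (-0.58, adjusted p = 0.0516). It was called lower with 6 of 10 alternative settings and in 3 of 12 fits with a single library left out. The alpha spectrin gene SPTAN1 was at 254 ± 2.9 CPM in control and 187 ± 8.83 CPM in CCT4 siRNA libraries (-0.44, adjusted p = 0.000299). EPB41, which encodes a protein that joins spectrin to actin, was lower by a call (-0.51, adjusted p = 0.0394) that was lost without control siRNA 2 (-0.30), CCT4 siRNA 1 (-0.44) or 3 (-0.46), or anticarin-beta 2 or 3 (both -0.51), and in the siRNA experiment fitted alone (-0.52, adjusted p = 0.0692).

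Transporters that use the sodium gradient were more often higher than lower with the compound. Of 28 genes, 23 were tested, 14 were higher, 4 lower and 5 not called, with a median of 0.88, beside 34.9% of all genes higher and 38.0% lower. SLC38A2 and SLC38A1, neutral amino acid carriers, rose from 919 ± 115 to 4300 ± 69.9 CPM (2.23) and from 379 ± 40.6 to 1410 ± 25.3 CPM (1.90). The creatine carrier SLC6A8 rose from 71.5 to 201 CPM (1.49). The neutral amino acid exchanger SLC1A4 fell from 29.9 to 7.34 CPM (-2.02). With the siRNA 7 were higher, 1 lower and 15 not called (10.7% and 9.04% of all genes), and scaling by totals changed this to 2 higher and 3 lower. SLC38A2 was higher there too (0.72, adjusted p = 0.000112), as was the phosphate carrier SLC20A1 (0.55, adjusted p = 0.000226), and the glutamine carrier SLC1A5 was lower (-0.95, adjusted p = 0.000624).

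With the compound, channel genes were called in both directions (all genes: 34.9% higher, 38.0% lower). Of 16 sodium entry channel genes 13 were tested, with 5 higher, 6 lower and 2 not called and a median of -0.54. TRPM7, a cation channel joined to a kinase, went from 65.6 to 295 CPM (2.17), the voltage-gated channel genes SCN3A from 65.8 to 184 (1.48) and SCN8A from 6.35 to 19.8 (1.64), and the acid-sensing channel gene ASIC3 from 6.3 to 15.2 (1.27). In the siRNA experiment TRPM7 was lower (-0.68, adjusted p = 0.000266), opposite in sign to its compound change, ASIC1 was lower (-0.66, adjusted p = 0.0351) and the other 11 were not called (9.04% of all genes were lower). The ASIC1 call was lost without any of control siRNA 1 to 3 (-0.67, -0.71, -0.61) or CCT4 siRNA 1 or 3 (both -0.58). Of 10 genes for potassium chloride cotransport and volume-regulated channels, 5 were higher, 4 lower and 1 not called, with a median of 0.25. The cotransporters SLC12A4 (1.56) and SLC12A7 (0.59), the volume channel subunit LRRC8A (1.19) and the scramblase channel ANO6 (0.65) were higher. The other volume channel subunits did not move together. LRRC8B (-3.0) and LRRC8D (-3.74) were lower and LRRC8E was not called. LRRC8C was higher (0.66), a call lost with library totals (0.25, adjusted p = 0.101). In the siRNA experiment 3 were lower and 7 not called (9.04% of all genes were lower). CLCN3, a chloride-proton exchanger, was lower (log2 fold change -0.64, adjusted p = 0.0071), as were the volume channel subunits LRRC8C (-0.41, adjusted p = 0.036) and LRRC8D (-1.28, adjusted p = 0.0498). The LRRC8C call was lost without any 1 of the 6 siRNA libraries (-0.38 to -0.44). That of LRRC8D was lost without any 1 of them but CCT4 siRNA 1 (-0.999 to -1.31), and without vehicle 2 or any anticarin-beta library (-1.28), and with DESeq2 (adjusted p = 0.064).

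**Figure D4:**
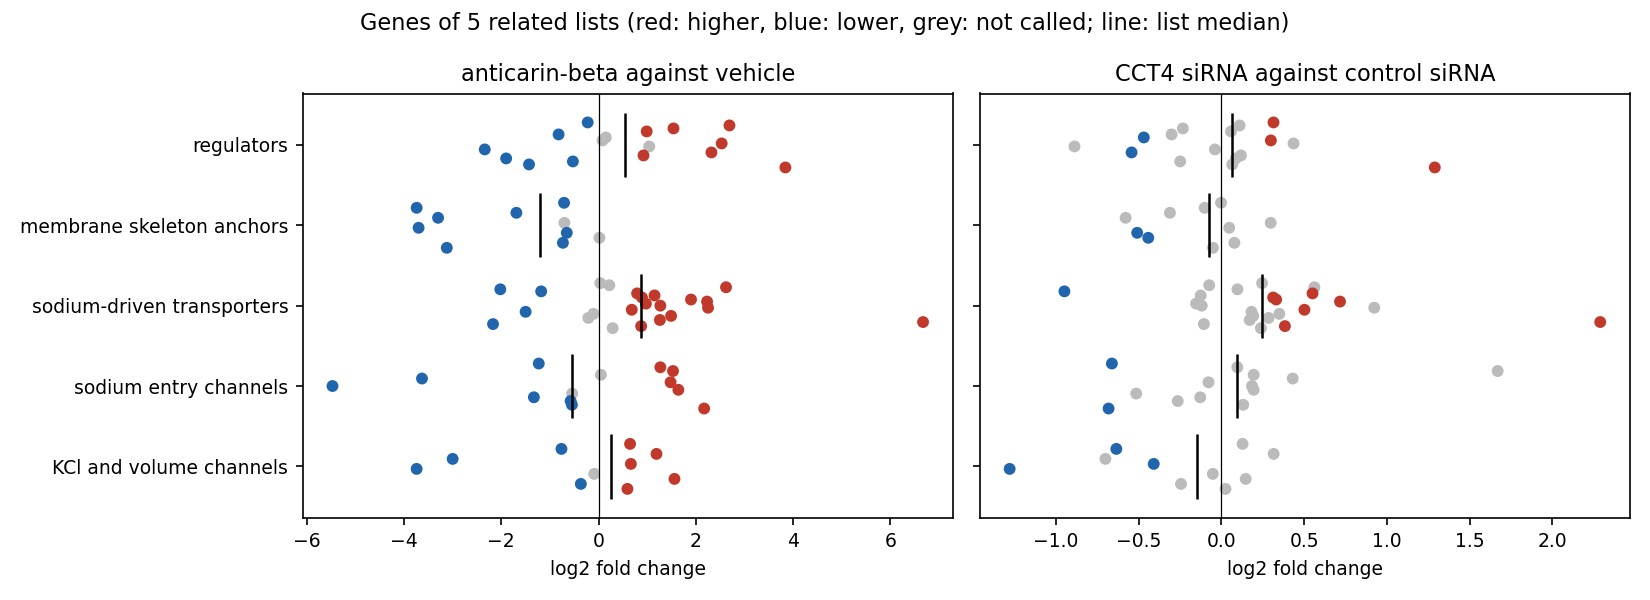
Log2 fold changes (horizontal axes) of the tested genes of 5 lists (vertical axis) with anticarin-beta (left) and with CCT4 siRNA (right, on a narrower scale); each point is a gene, red is called higher, blue lower, grey not called, and the vertical line is the list's median. With the compound, membrane skeleton anchors (median -1.21) have no gene called higher, while the other lists hold calls in both directions. With CCT4 siRNA only the regulators and the sodium-driven transporters hold genes called higher.

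Many of the named genes share annotated exon bases with another gene and are uncertain to that extent. SLC12A4 shares them on the same strand with LCAT, and LRRC8C and LRRC8D with an annotated gene that overlaps both. Those of NEDD4L, WNK4, ANK1, SPTBN1, SPTAN1, EPB41, SLC6A8, SLC1A5, TRPM7, SCN3A, SCN8A and ANO6 are shared with genes on the opposite strand, as are those of TFPI, DIAPH2 and HSF1, and FNTA shares them on the same strand.

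The genes whose pattern over the 12 libraries was most like each member were found by the root mean square difference of centred log2 CPM among 11241 genes. Nearest to ATP1B1 were TFPI, which encodes a coagulation inhibitor (0.128), the histone gene HIST1H2BK (0.15) and the thioesterase gene ACOT9 (0.157). Nearest to ATP1B3 were the farnesyltransferase subunit gene FNTA (0.134), OSBPL2 (0.135) and SUSD6 (0.136). Nearest to FXYD5 were CYTH1 (0.0916), DIAPH2 (0.0961) and the heat shock factor gene HSF1 (0.0976). The libraries fall into the same 4 groups for all genes, so likeness describes these libraries alone. TFPI changed by 2.03 with the compound and 0.12 with the siRNA, set beside 2.03 and 0.26 for ATP1B1. FNTA changed by 1.66 and 0.10, set beside 1.51 and 0.11 for ATP1B3. Both genes were chosen for their likeness over these same libraries, so close changes follow from the choice.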

How the data were processed

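Counts of RNA-seq reads per gene came from 1 table of raw counts that the authors deposited, not normalized and not pooled. Libraries were made with a stranded kit, per the labels' protocols. STAR 2.5.2a, featureCounts 1.5.0, Subread and hg38 are named in the submitters' processing notes. No source at hand names the annotation release or the strand setting of counting, and genes that overlap on opposite strands may hold each other's reads. Groups and replicate numbers came from the labels. Replicates differed by more than sampling noise (chi-square per degree of freedom 9.35 to 29.7). None was thus treated as a library deposited a second time, and the spread does not show separate cultures. Vehicle library 1 gave the highest values, 27.75 against vehicle 2 and 29.67 against vehicle 3. Vehicle 2 against vehicle 3 gave 14.99.

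Genes were tested with edgeR 4.0.16 (R 4.3.3), quasi-likelihood, two-sided, with TMM scaling, filterByExpr and 1 mean per group over 12 libraries (8 residual degrees of freedom, 17717 genes, Benjamini-Hochberg adjustment, called under 0.05, prior count 0.125). Standard errors came from the F statistic. Ratios within a library used counts plus 0.5. Alternatives were other scalings (RLE, upper quartile, library totals), other filters, DESeq2 1.42.0, limma-voom (limma 3.58.1), each experiment alone, a replicate block, no mitochondrially encoded genes and each library left out. The procedure was tested on simulated data in which few genes changed. The compound comparison differs in this, so that test does not bear on the choice of scaling.

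The members and the lists were chosen with earlier results of these data known, and the promoter motifs after the tables had been seen. Named genes were the members, CCT4, the 4 genes of each list with the smallest p in the compound comparison, up to 3 called in the siRNA comparison and the 3 nearest patterns (genes at a mean of 5 CPM or more). NME7 and the copies of members were added because of their sequence. The other LRRC8 genes of the list were added beside LRRC8A. A few genes of the pump family list, and 1 gene that the rule would name, are not reported here. Intervals and floors cover counting error only where stated. Exon lengths and positions come from GENCODE release 29, which held 98.5% of the gene identifiers.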

Additional observations from a re-analysis of the deposited data

How the results depend on the processing

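Of 66 values for the 3 tested members in the compound comparison (22 alternatives each), 65 kept their direction and their side of the threshold, the exception being FXYD5 with library totals. In the siRNA comparison all 66 stayed uncalled, though the ATP1B3 difference became -0.02 with library totals. In the difference of the responses 60 of 63 were kept, and in control siRNA against vehicle 58 of 63; the report names the others save 1, ATP1B3 with the replicate block (0.35, adjusted p = 0.05). With single libraries left out, the compound change ran from 1.86 to 2.14 for ATP1B1, 1.42 to 1.56 for ATP1B3 and 0.46 to 0.55 for FXYD5. The log2 ratio of ATP1B1 to ATP1B3 then ran from 0.44 to 0.65 and that of FXYD5 to ATP1B3 from -1.07 to -0.93. With library totals PRKCA and SPTAN1, not called under TMM, changed sign to -0.34 and -0.40 in the compound comparison, where the median of all genes moved to -0.48. The replicate numbers did not pair the samples (correlations of same-numbered libraries -0.03 to 0.02). With the replicate block the compound change was 2.04 for ATP1B1, 1.51 for ATP1B3 and 0.50 for FXYD5. The siRNA calls of PRKCA, ASIC1, LRRC8C and LRRC8D were then not made (edgeR adjusted p = 0.052, 0.0639, 0.108 and 0.0615). In the compound comparison with the block, both ratios had an exact permutation p of 0.25, the smallest that 3 pairs allow. In the siRNA comparison the exact permutation p was 0.75 for the ratio of ATP1B1 to ATP1B3. The siRNA calls over all genes, 3493, fell to between 2202 and 2296 without control siRNA 1 or 2 or any CCT4 siRNA library. Depth limits ATP1A4 and ATP1B2, whose counts are too few to test.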
